A study of Mus musculus with 16 samples.

Results

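Regulatory T cells are known by the transcription factor Foxp3 and by a set of surface proteins, and 7 such genes were chosen by name: Foxp3, Nt5e, Entpd1, Itgae, Lrrc32, Nrp1 and Gpr83. All probe sets of the array with exactly 1 gene symbol among these names were taken, which gave 15 probe sets of 6 genes, out of 34945 such probe sets of 18193 genes. For Lrrc32, which encodes GARP, the docking protein of latent TGFb, the platform table used here held no probe set with that single symbol, and it was not analysed here. The other 6 genes all passed the minimum level for testing (log2 6 on at least 2 arrays), as did 14 of the 15 probe sets.

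The study read mouse CD4+ T cells on 16 Affymetrix arrays, which fall into 8 groups of 2. Naive cells (CD44-, CD62L+) were sorted and kept for 3 days under antibodies against CD3 and against CD28, which stimulate the T cell receptor and its costimulatory receptor. To this was added nothing (medium), IL-6 at 10 ug/ml, TGFb at 2.5 ug/ml, or both, in the units that the labels give. The STAT3-deficient cells had the genotype label "CD4 Cre; STAT3floxed" and the WT cells "STAT3floxed", so that both genotypes shared the floxed Stat3 allele and only the deficient cells carried the Cre recombinase. A CD4 Cre acts from the thymus onwards, so the deficient cells had developed with it before they were sorted. The labels give no age, strain or pooling of animals, and name no sorting marker, such as CD25, that would remove regulatory T cells already present. They also do not say whether the 2 arrays of a group came from separate animals or cultures. The sex-linked genes Xist and Eif2s3y, whose values are given below, divide the replicate numbers in every group. The 2 arrays of a group thus came from different animals, of opposite sex. The p-values speak of the spread among these arrays alone, which in the main fit includes whatever differs between the replicate numbers.

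As background, TGFb given to naive CD4+ T cells during stimulation induces Foxp3, and IL-6 acting through STAT3 diverts such cells to the IL-17-producing Th17 type. Among the surface proteins, CD39 (Entpd1) and CD73 (Nt5e) act in sequence, CD39 trimming extracellular ATP to AMP and CD73 turning AMP into adenosine, which dampens T cells through its receptors. CD103 (Itgae) pairs with the integrin chain beta 7 to bind E-cadherin on epithelium, neuropilin-1 (Nrp1) is a semaphorin and VEGF co-receptor that marks thymus-derived regulatory T cells in mice, and Gpr83 is a G protein-coupled receptor that regulatory T cells express strongly.

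Promoter sequence was looked at because 4 of the members moved together with TGFb. RefSeq windows from 250 bases before to 50 bases after a gene's start (build GRCm38.p6) were matched by symbol for 5 of the 7 genes, giving 7 windows of 300 bases, with 2 windows each for Foxp3 and Entpd1. No window was found for Lrrc32 or for Itgae, which is 1 of the 4 genes that rose, so Itgae was not searched. Each was searched on both strands for TTCNNNGAA, letters that STAT proteins bind, for CAGACA, a SMAD-binding box, and for TGANTCA, an AP-1 site, motifs whose matches can overlap in part, although none of those found here did. The 3 windows below are shown because they hold the match in Foxp3, the match in Nt5e, whose change was the largest of the 6 genes, and a match in Nrp1, which did not pass the test with TGFb. Capitals mark the match, and all 3 lie on the plus strand, at chrX:7580233-7580532, chr9:88327359-88327658 and chr8:128358823-128359122.
Foxp3: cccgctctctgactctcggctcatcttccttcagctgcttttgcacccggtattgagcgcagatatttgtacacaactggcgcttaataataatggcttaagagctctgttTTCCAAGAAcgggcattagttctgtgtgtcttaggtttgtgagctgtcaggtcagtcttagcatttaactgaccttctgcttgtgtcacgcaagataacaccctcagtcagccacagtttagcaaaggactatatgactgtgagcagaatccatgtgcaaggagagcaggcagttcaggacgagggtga
Nt5e: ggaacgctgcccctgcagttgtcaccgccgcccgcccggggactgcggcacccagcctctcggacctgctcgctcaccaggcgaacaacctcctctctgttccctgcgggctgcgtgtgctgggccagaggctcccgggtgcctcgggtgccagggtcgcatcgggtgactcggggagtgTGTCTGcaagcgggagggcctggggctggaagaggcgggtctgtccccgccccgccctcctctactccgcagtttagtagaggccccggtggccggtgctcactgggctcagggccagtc
Nrp1: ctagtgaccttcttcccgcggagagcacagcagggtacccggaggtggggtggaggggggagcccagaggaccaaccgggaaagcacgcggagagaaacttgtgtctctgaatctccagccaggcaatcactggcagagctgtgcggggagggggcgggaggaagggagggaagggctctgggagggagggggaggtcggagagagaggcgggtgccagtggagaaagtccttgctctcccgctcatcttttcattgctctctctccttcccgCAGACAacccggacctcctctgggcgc
The Foxp3 match, TTCCAAGAA, begins at position -139, counted from the start site as 1 with no 0, in the downstream one of its 2 windows. The letters TTCNNNGAA occur in 8.3% of the 32851 windows in the table. CAGACA stands in Nt5e as its reverse complement TGTCTG at -70, in Nrp1 at 24 and in Gpr83 at -218, again as TGTCTG, and 21% of all windows hold it. TGANTCA, held by 7.81% of all windows, was in none of the 7. The other Foxp3 window and both Entpd1 windows held none of the 3 motifs. These are matches of letters and not known binding sites. Of the 3 genes with the CAGACA box, Nt5e rose with TGFb, and Nrp1 and Gpr83 did not pass the test.

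Before the members are described, 2 arrays have to be set apart, both labelled STAT3-deficient TGFb. Over all genes their correlation with each other was 0.906, the lowest of the 8 pairs of replicates (the other 7 lay between 0.939 and 0.981). Replicate 1 read the Th17 cytokine gene Il17a at 9.55 and the chemokine receptor gene Ccr6 at 12.38, while the other 7 STAT3-deficient arrays read Il17a at 6.04 to 6.51 and Ccr6 at 6.66 to 8.71. Replicate 2 read Stat3 at 10.46, above the other 7 STAT3-deficient arrays (8.4 to 9.56) and inside the range of the WT arrays (10.22 to 12.18). Its correlation with WT TGFb replicate 2 was 0.992, but the medium arrays of the 2 genotypes also correlated at 0.992 within each replicate number. Changes of the members that rest on the STAT3-deficient TGFb arrays are therefore also given without each of them. The comparison of replicate numbers, the fit of single probe sets and the correlations used all 16 arrays. The arrays carried CD4 T cell markers, of which all 6 on the array lay between 9.64 and 13.55, and the markers of CD8, gamma delta T, B, dendritic, macrophage and stromal cells stayed under log2 8 on every array, as did those of NK cells apart from Eomes at up to 8.34. Median intensity per array lay between 66 and 73. Changes are differences of log2 intensity between groups, and a gene was called changed at an adjusted p under 0.05 in limma, fitted to all 16 arrays and adjusted over 13007 genes.

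With TGFb, the genes of both ectoenzymes, of CD103 and of Foxp3 rose over the 4 matched pairs of groups (with against without TGFb, in each genotype, with and without IL-6), and Nrp1 and Gpr83 did not pass the test. Nt5e rose 23.6-fold, Foxp3 6.68-fold, Itgae 5.68-fold and Entpd1 3.85-fold on the scale of the deposited intensity. The folds of Foxp3 and Entpd1 depend on the background of the array, since their mean levels without TGFb (4.98 and 5.74) lay under the minimum level, which 0 and 4 of those 8 arrays reached. Nt5e reached it on 5 of the 8, and the second probe set of Itgae on 0, so the folds of these genes can depend on the background too. Thus 4 of the 6 genes were called, all as rises, in a comparison that called 9.25% of all genes tested (1203 of 13007, 710 higher and 493 lower, and 2125 with the replicate number as a block). Their count is a description, because Foxp3 reached the minimum level only on arrays with TGFb and could enter the test in no other way. In bulk samples such as these, fewer cells of a type and less RNA per cell cannot be told apart.

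**Figure D1:**
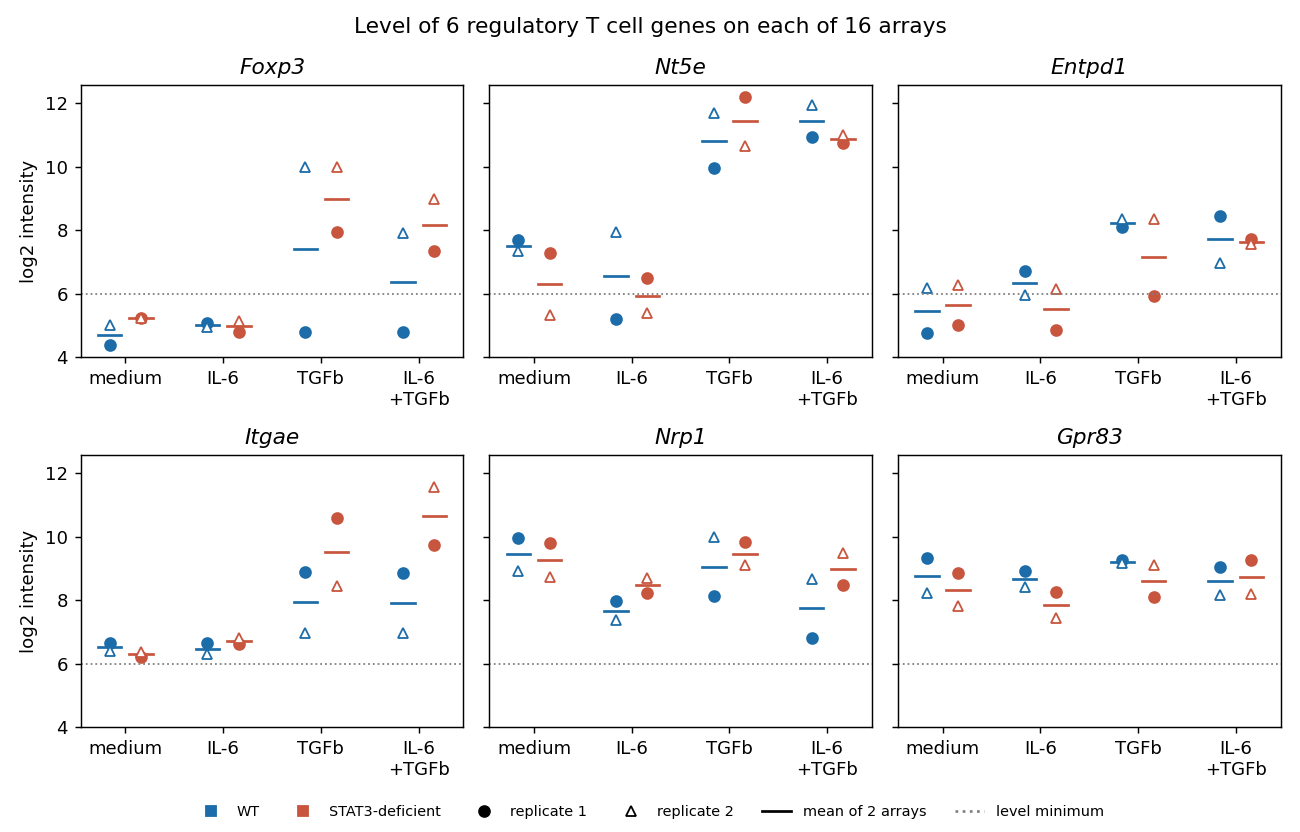
Log2 intensity of the 6 genes (vertical axis) on each of the 16 arrays, by condition (horizontal axis), genotype (colour) and replicate number (filled circles for replicate 1, open triangles for replicate 2), with the mean of the 2 arrays as a bar and the minimum level of log2 6 as a dotted line. Nt5e and Itgae lie higher on all 8 arrays with TGFb than on any array without it, Foxp3 leaves the region under the dotted line on 6 of the 8 arrays with TGFb, and the arrays of Nrp1 and of Gpr83 with and without TGFb cover overlapping ranges.

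Foxp3, the transcription factor that defines the lineage, was read by 1 probe set (1420765_a_at). In WT cells replicates 1 and 2 read log2 4.39 and 5 in medium, 5.09 and 4.95 with IL-6, 4.81 and 9.99 with TGFb, and 4.81 and 7.9 with both cytokines. In STAT3-deficient cells they read 5.25 and 5.25 in medium, 4.81 and 5.13 with IL-6, 7.96 and 9.98 with TGFb, and 7.35 and 8.99 with both. All 8 arrays without TGFb thus lay under the minimum level, and so did replicate 1 of both WT groups with TGFb, which read no higher than the arrays without it. The order of the group means ran from STAT3-deficient TGFb (8.97 ± 1.43, SD, n = 2) through STAT3-deficient IL-6 with TGFb (8.17 ± 1.16), WT TGFb (7.4 ± 3.67) and WT IL-6 with TGFb (6.35 ± 2.19) to the 4 groups without TGFb, at 4.7 to 5.25. Neighbours among the first 5 groups in this order overlapped, so that none of these steps exceeded the spread.

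Over the 4 matched pairs Foxp3 averaged 7.72 with TGFb and 4.98 without, a log2 change of 2.74 (SE 0.7, adjusted p = 0.0336). With the replicate number as a block the SE was 0.53 (adjusted p = 0.00668 in limma), while the following fits without single arrays or groups carry no block. Without STAT3-deficient TGFb replicate 1 the change was 2.99 (adjusted p = 0.029). Leaving out its replicate 2 gave 2.49 (adjusted p = 0.0583), and leaving out the whole group gave 2.41 (adjusted p = 0.127), so the call was lost in both cases. Of the 16 fits that left out 1 array, 5 kept the call: those without WT TGFb replicate 1 (3.39) or 2 (2.09), STAT3-deficient TGFb replicate 1, WT IL-6 with TGFb replicate 1 (3.13) and WT IL-6 replicate 2 (2.72). Without any of the other arrays the change was 2.35 to 2.94, with an adjusted p of 0.0501 to 0.0782. No single pair of groups passed the test for Foxp3: the change with TGFb against medium was 2.7 (SE 1.4, adjusted p = 0.527) in WT and 3.72 (adjusted p = 0.3) in STAT3-deficient cells. The latter was 4.73 without replicate 1 and 2.71 without replicate 2 of the TGFb group.

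The 2 replicate numbers differed more for Foxp3 than for any other member. Replicate 2 read higher than replicate 1 in 6 of 8 groups and in all 4 groups with TGFb, and in a fit with the replicate number as a block its mean excess was 1.59 (SE 0.53, adjusted p = 0.0548). The 8 groups ranged from -0.13 to 5.19 in this difference, and WT TGFb was the extreme. None of the 6 members was called between the replicate numbers, a comparison that called 19.8% of all genes. Replicate 1 arrays read Xist, the RNA of the inactive X chromosome, at 11.91 to 13.21 and replicate 2 arrays at 6.64 to 7.6, and the Y-linked Eif2s3y at 3.81 to 4.52 and 9.84 to 10.98. Foxp3 is itself X-linked, and the part of sex, or of anything else that came with the number, in its level was not tested. Tgfb1, the gene of the cytokine that was added, also divided the numbers, at 8.86 to 10.3 on replicate 1 arrays and 10.53 to 11.28 on replicate 2 arrays. Within replicate 1 alone, TGFb against medium changed Foxp3 by 0.42 in WT and 2.71 in STAT3-deficient cells, and within replicate 2 by 4.99 and 4.73.

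**Figure D2:**
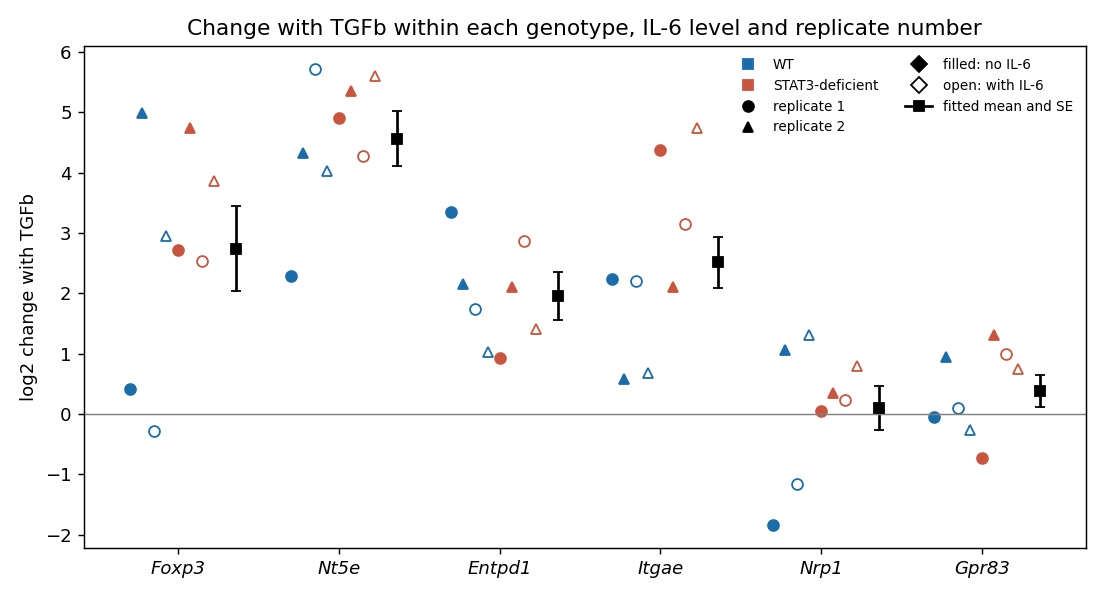
Log2 change with TGFb (vertical axis) of the 6 genes within each genotype (colour), replicate number (circles and triangles) and IL-6 level (filled without, open with IL-6), beside the fitted mean over the 4 matched pairs of groups with its SE (black squares). All 8 differences are above 0 for Nt5e, Entpd1 and Itgae, and those of Foxp3 in WT replicate 1 are 0.42 and -0.28.

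Nt5e, which encodes CD73, the enzyme that makes adenosine, was read at log2 7.69 and 7.35 in WT medium, 5.21 and 7.93 in WT IL-6, 9.97 and 11.68 in WT TGFb, and 10.93 and 11.96 in WT IL-6 with TGFb. In STAT3-deficient cells the arrays read 7.28 and 5.32 in medium, 6.49 and 5.39 with IL-6, 12.19 and 10.67 with TGFb, and 10.76 and 11 with both. Every array with TGFb was higher than every array without it, by a wide gap between 7.93 and 9.97. The 4 groups with TGFb, at means of 10.83 to 11.44, overlapped their neighbours, and so did the 4 groups without it, at 5.94 to 7.52. The rise was 4.56 (SE 0.46, adjusted p = 0.000221), from 6.58 to 11.14.

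Nt5e was also the member that passed the test within single pairs of groups. In STAT3-deficient cells TGFb against medium raised it by 5.13 (SE 0.93, 35-fold, adjusted p = 0.0457), where 0.354% of all genes were called, and it was the 1 member of 6 called. That call rested on the arrays set apart above: without replicate 1 of the TGFb group the change was 4.37 (adjusted p = 0.176), and without replicate 2 it was 5.89 (adjusted p = 0.0295), with Itgae then called as well (4.3, adjusted p = 0.0431). The call was also lost without replicate 1 or replicate 2 of the STAT3-deficient medium group, at 6.11 and 4.15. In WT cells TGFb added to IL-6 raised Nt5e by 4.87 (29.3-fold, adjusted p = 0.0337), again 1 of 6 members, in a comparison that called 0.953% of all genes. This call was lost without WT IL-6 replicate 1 (3.51), without WT IL-6 with TGFb replicate 1 (5.39) and without its replicate 2 (4.36).

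The remaining pairs gave no call among the members. For TGFb against medium in WT, where 0.223% of all genes were called, the change of Nt5e was 3.31 (adjusted p = 0.261), of Entpd1 2.75 (adjusted p = 0.272) and of Itgae 1.41 (adjusted p = 0.589), each with no overlap between the groups. With 2 arrays against 2 such a gap says little: between the genotypes in medium, where no gene was called, 3 of the 6 members also had no overlap. For TGFb added to IL-6 in STAT3-deficient cells, where 0.254% were called, Nt5e changed by 4.93 (adjusted p = 0.0692) and Itgae by 3.94 (adjusted p = 0.114). With the replicate number as a block both passed, at adjusted p = 0.0421 and 0.0494.

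Entpd1 encodes CD39, the enzyme that acts before CD73. Its arrays read log2 4.75 and 6.19 in WT medium, 6.71 and 5.95 in WT IL-6, 8.1 and 8.34 in WT TGFb, and 8.45 and 6.98 in WT IL-6 with TGFb. In STAT3-deficient cells they read 5 and 6.27 in medium, 4.86 and 6.15 with IL-6, 5.93 and 8.37 with TGFb, and 7.72 and 7.56 with both. Of the 8 arrays with TGFb, 7 lay above every array without it, and the exception was STAT3-deficient TGFb replicate 1, the array that also read Il17a high. The rise was 1.95 (SE 0.4, adjusted p = 0.0128), from 5.74 to 7.68, and it was 2.25 (adjusted p = 0.0034) without that array and 1.64 (adjusted p = 0.0138) without replicate 2 of the same group. In the order of the group means, from WT TGFb at 8.22 ± 0.16 to WT medium at 5.47 ± 1.01 (SD, n = 2), every group overlapped its neighbours. Macrophages and B cells also express CD39. The summed intensity of 6 macrophage markers lay at log2 8.52 to 8.78 on arrays with TGFb and 8.46 to 9 without, and that of 5 B cell markers at 7.81 to 8.45 and 7.76 to 8.5.

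Itgae, the gene of the CD103 chain that pairs with beta 7, was the member in which the genotypes stood furthest apart. WT arrays read log2 6.66 and 6.39 in medium, 6.66 and 6.3 with IL-6, 8.89 and 6.98 with TGFb, and 8.87 and 6.98 with both. STAT3-deficient arrays read 6.23 and 6.36 in medium, 6.61 and 6.82 with IL-6, 10.6 and 8.46 with TGFb, and 9.76 and 11.56 with both. All 8 arrays with TGFb were higher than all 8 without, although WT replicate 2 lay little above them. The rise was 2.51 (SE 0.42, adjusted p = 0.00473), from 6.5 to 9.01, and remained called without STAT3-deficient TGFb replicate 1 (2.24, adjusted p = 0.00667) and without its replicate 2 (2.77, adjusted p = 0.0019). The group means fell in the order STAT3-deficient IL-6 with TGFb (10.66 ± 1.27), STAT3-deficient TGFb (9.53 ± 1.51), WT TGFb (7.93 ± 1.35), WT IL-6 with TGFb (7.92 ± 1.34) and the groups without TGFb (6.29 to 6.72). Neighbours overlapped at each of these steps apart from the last, from the lowest group with TGFb to the groups without it. CD8 T cells also carry CD103, and the summed intensity of Cd8a and Cd8b1 lay at log2 7.62 to 8 with TGFb and 7.42 to 8.05 without.

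Nrp1 and Gpr83 behaved differently from the other 4 genes. Nrp1 arrays read log2 9.98 and 8.93 in WT medium, 7.99 and 7.37 in WT IL-6, 8.13 and 10 in WT TGFb, and 6.82 and 8.67 in WT IL-6 with TGFb. In STAT3-deficient cells they read 9.81 and 8.75 in medium, 8.24 and 8.71 with IL-6, 9.85 and 9.1 with TGFb, and 8.47 and 9.5 with both. The 8 arrays with TGFb (median 8.89) and the 8 without (median 8.73) covered nearly the same range, and the change was 0.1 (SE 0.36, adjusted p = 0.917), or 0 and 0.19 without replicate 1 or 2 of STAT3-deficient TGFb. The lower values belonged to WT cells given IL-6, where the mean was 7.68 ± 0.44 with IL-6 alone and 7.75 ± 1.31 with both cytokines, against 9.46 ± 0.74 in medium (SD, n = 2). Neighbours in the order of the 8 means, from 9.47 to 7.68, all overlapped.

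Gpr83, the G protein-coupled receptor gene, was read at log2 7.46 to 9.32 on all 16 arrays. WT arrays read 9.32 and 8.22 in medium, 8.94 and 8.43 with IL-6, 9.27 and 9.17 with TGFb, and 9.04 and 8.17 with both. STAT3-deficient arrays read 8.85 and 7.81 in medium, 8.26 and 7.46 with IL-6, 8.11 and 9.12 with TGFb, and 9.26 and 8.21 with both. No group stood apart, and neighbours in the order of means from 9.22 (WT TGFb) to 7.86 (STAT3-deficient IL-6) all overlapped. The change with TGFb was 0.38 (SE 0.27, adjusted p = 0.436), or 0.51 and 0.26 without replicate 1 or 2 of STAT3-deficient TGFb. Replicate 1 read higher than replicate 2 in 7 of the 8 groups, with a mean difference of -0.56 for replicate 2 minus 1 (SE 0.21, adjusted p = 0.0886 in the blocked fit).

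The question that IL-6 raises is whether it lowered these genes where TGFb was present. Among the members none was called for IL-6 added to TGFb, in WT cells (0.507% of all genes called) or in STAT3-deficient cells (0% called, with 473 genes at an unadjusted p under 0.05 in limma). Foxp3 changed by -1.05 in WT (adjusted p = 1) and by -0.8 in STAT3-deficient cells. Within replicate numbers the WT change was 0 in replicate 1, where both arrays lay under the minimum level, and -2.09 in replicate 2, and the STAT3-deficient changes were -0.61 and -1. Without replicate 1 of STAT3-deficient TGFb the change in those cells was -1.81, and without replicate 2 it was 0.21. Both values set arrays of unlike replicate number against each other, and Foxp3 read higher in replicate 2 in all 4 groups with TGFb. The reversed sign can therefore not be told apart from the replicate difference. The difference between the genotypes in this change was 0.24 (SE 1.98, adjusted p = 0.998), in an interaction that called 0.0769% of all genes and no member, and it was -0.77 and 1.25 without replicate 1 or 2 of STAT3-deficient TGFb. An SE of this size would leave a difference of several log2 units undetected.

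IL-6 against medium called no member either, with 0.284% of all genes called in WT and 0% in STAT3-deficient cells (173 genes at an unadjusted p under 0.05 in limma). Nrp1 was the member with the most even change. Averaged over the 4 matched pairs, a comparison added after the values were seen, it read 8.22 with IL-6 and 9.32 without, a change of -1.1 (SE 0.36, unadjusted p = 0.0111 in limma, adjusted p = 0.503), and 0.0538% of all genes were called. It was -1.01 and -1.19 without replicate 1 or 2 of STAT3-deficient TGFb. Against medium, replicates 1 and 2 changed by -1.99 and -1.57 in WT cells, and by -1.57 and -0.04 in STAT3-deficient cells. With TGFb present the changes were -1.31 and -1.33 for WT, then -1.38 and 0.4 for STAT3-deficient cells. Of these 8 differences 7 were below 0. The WT change against medium was -1.78 (adjusted p = 0.335), and the other probe sets of the gene gave -0.88, -0.99 and -0.52 for the mean of the pairs.

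Between the genotypes no member passed the test in any condition. The share of all genes called was 1.19% under IL-6 with TGFb, 3.29% under IL-6, 0% under TGFb (89 genes at an unadjusted p under 0.05 in limma), 0% in medium (17 genes) and 0.969% for the mean of the 4 conditions. Itgae came nearest. Under IL-6 with TGFb it was higher by 2.74 in STAT3-deficient cells (SE 0.84, unadjusted p = 0.00715 in limma, adjusted p = 0.214), with no overlap between the groups, a gap that 3 of the 6 members also had in medium. The difference was 0.89 in replicate 1 and 4.58 in replicate 2. Leaving out 1 array moved it to 3.64 and 1.84 without replicate 1 or 2 of the STAT3-deficient group, and to 3.68 and 1.79 without replicate 1 or 2 of the WT group. Those fits do not pair the replicate numbers, so these shifts include the replicate difference. Under TGFb alone the Itgae difference was 1.71 in replicate 1 and 1.48 in replicate 2, with overlapping groups. Over the mean of the 4 conditions it was 1.08 (SE 0.42, adjusted p = 0.244). Without replicate 1 or 2 of STAT3-deficient TGFb this mean was 0.82 and 1.35.

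The response of Itgae to TGFb was 2.16 larger in STAT3-deficient than in WT cells (SE 0.84, unadjusted p = 0.0246, adjusted p = 1 in limma), in an interaction added after the values were seen that called 0% of all genes and left 343 at an unadjusted p under 0.05. It was 1.63 without replicate 1 and 2.7 without replicate 2 of STAT3-deficient TGFb. Foxp3 was higher in STAT3-deficient cells by 1.81 under IL-6 with TGFb (SE 1.4, adjusted p = 0.759). This ranged with single arrays, from 2.63 and 0.99 without replicate 1 or 2 of the STAT3-deficient group to 0.27 and 3.36 without replicate 1 or 2 of the WT group. Those fits do not pair the replicate numbers, so the range cannot be told apart from the replicate difference. By replicate number the Foxp3 difference was 2.54 and 1.08, and under TGFb 3.15 and -0.01. Both values under TGFb come from the arrays set apart above. Replicate 1 read Il17a high and was compared with a WT array at 4.81, under the minimum level. Replicate 2 read Stat3 inside the WT range. Nrp1 was higher by 1.24 under IL-6 with TGFb (SE 0.72, adjusted p = 0.648). The ectoenzyme genes differed little there, Nt5e by -0.56 (SE 0.93, adjusted p = 0.907) and Entpd1 by -0.07 (SE 0.8, adjusted p = 0.99), and under TGFb their 2 replicate numbers gave differences of opposite sign.

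**Figure D3:**
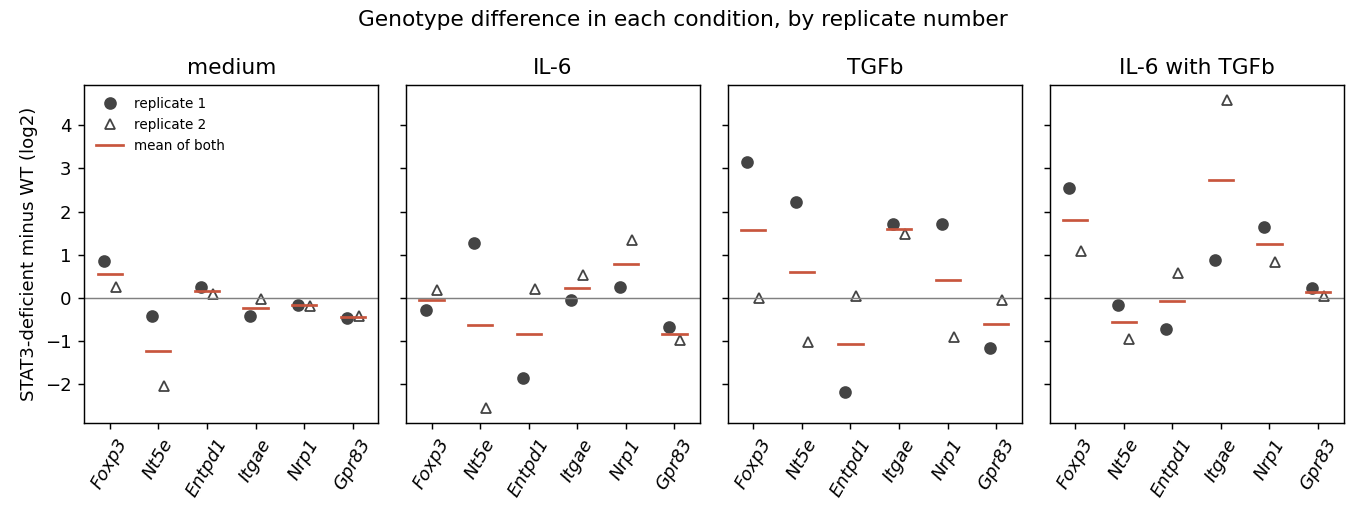
Difference between STAT3-deficient and WT cells (log2, vertical axis) for the 6 genes in each of the 4 conditions, for replicate 1 (circles) and replicate 2 (triangles), with the mean of both as a bar. Under IL-6 with TGFb the Itgae difference is 0.89 and 4.58, and under TGFb Foxp3 shows 3.15 in replicate 1 and -0.01 in replicate 2.

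Further probe sets were available for all members apart from Foxp3, and they were compared for the change with TGFb in a fit with every probe set as its own row. For Itgae the second probe set (1447541_s_at) gave 3.4 (adjusted p = 0.00186) beside 2.51 for the one used, and for Entpd1 1450939_at gave 1.22 (adjusted p = 0.00684) beside 1.95. These 2 probe sets, 1447541_s_at and 1450939_at, reached the minimum level on 0 of the 8 arrays without TGFb. They entered the fit only through arrays with TGFb, so their p-values are a description and no further test of the rise. The third Entpd1 probe set, 1453586_at, stayed under the minimum level on 15 arrays. For Nt5e the values went further apart: 4.56 for 1428547_at, 1.19 for 1422974_at (SE 0.32, adjusted p = 0.0501) and 0.23 for 1459023_at (adjusted p = 0.191), whose 16 values lay between 6.49 and 7.14. All 3 were positive, so the direction held, while the fold of Nt5e belongs to 1 probe set. The 4 Nrp1 probe sets gave 0.1, -0.13, 0.01 and -0.04, and the 2 of Gpr83 0.38 and 0.47. Over the 16 arrays the other probe sets correlated with the one used at 0.63 and 0.77 for Nt5e, 0.87 and 0.88 for Entpd1, 0.98 for Itgae, 0.93 to 0.97 for Nrp1 and 0.93 for Gpr83.

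**Figure D4:**
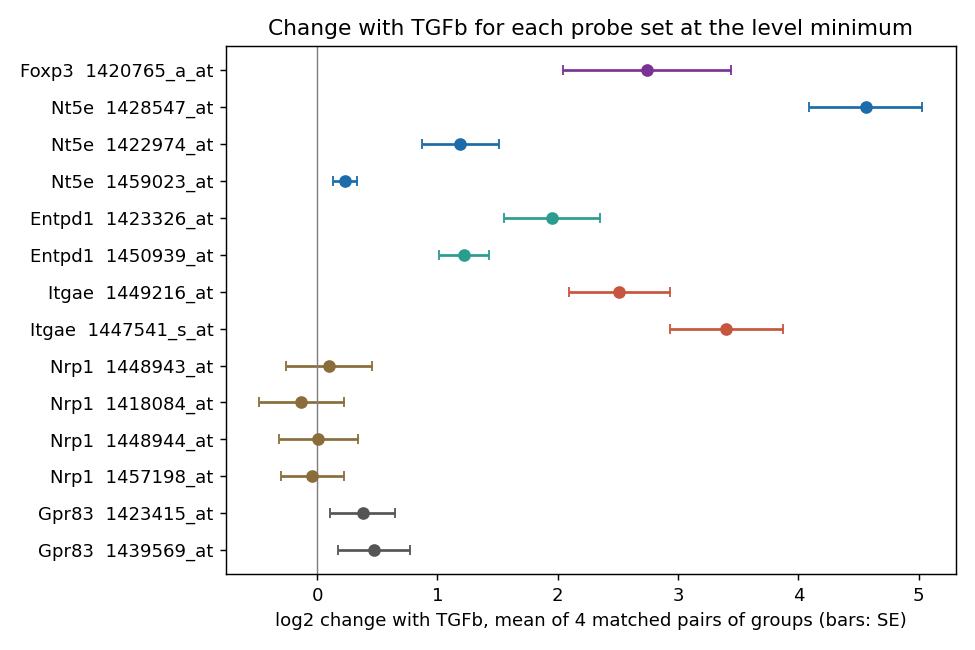
Log2 change with TGFb (horizontal axis, mean of the 4 matched pairs of groups, bars for the SE) of the 14 probe sets that reached the minimum level, coloured by gene. Both Itgae probe sets and both Entpd1 probe sets lie above 0, the 3 of Nt5e run from 0.23 to 4.56, and the 4 of Nrp1 lie around 0.

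How the members varied with one another was described by Pearson's r over the 16 arrays, which share their conditions and replicate numbers, so that no test is given. The highest values were 0.71 for Foxp3 with Nt5e, 0.67 for Nt5e with Itgae and 0.6 for Nt5e with Entpd1. Foxp3 correlated at 0.55 with Entpd1, 0.49 with Itgae and 0.47 with Nrp1. Nrp1 ran apart from Entpd1 (-0.25) and from Gpr83 (-0.01). Among all genes tested, those with the pattern most like Foxp3 were Mpp1 (0.9), Sfrp2 (0.88) and Slc9a7 (0.87). For Nt5e they were Ap1s2 (0.97), Pdlim5 (0.96) and Capg (0.95), and for Entpd1 they were Diaph2, AU020206 and Il9, each at 0.94. Itgae was most like Fryl (0.88), Sec1 (0.87) and Cd96 (0.85), Nrp1 most like Extl3 (0.87), Ovgp1 (0.87) and Prkca (0.85), and Gpr83 most like Slc25a4 (0.84), Mov10 (0.83) and Cd80 (0.82).

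Around the members, 4 wider lists were counted for the same change with TGFb over the matched pairs. That comparison called 9.25% of all genes tested, and 16.3% with the replicate number as a block. Of 31 partners and regulators of Foxp3, all tested, 4 rose and 3 fell, with a median change of 0.28 against -0.01 over all genes. Ikzf2 and Ikzf4, which encode the regulatory T cell factors Helios and Eos, rose by 2.73 (adjusted p = 0.000466) and 1.27 (adjusted p = 0.000853). For TGFb added to IL-6 in WT cells, however, Ikzf2 changed by 0.33 and Ikzf4 by 0.37 (adjusted p = 0.995 and 0.901), against 2.85 to 4.49 and 1.23 to 2 in the other pairs. Satb1, a chromatin organiser, fell by 1.26 (adjusted p = 0.0494), and Nr4a2, a nuclear receptor of the Nur77 family, fell by 1.18 (adjusted p = 0.0324). With the replicate number as a block 6 rose and 4 fell. Without the STAT3-deficient TGFb group 4 rose and 0 fell, and Satb1 was not called without its replicate 2 (-1.15, adjusted p = 0.0841).

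Of 27 other effector and surface genes of regulatory T cells, 20 were tested, of which 3 rose and 1 fell. Their median was -0.09 against -0.01 over all genes, of which 9.25% were called, and 16.3% with the replicate block. With the replicate block 3 rose and 2 fell, the added gene being Gzmb, a cytotoxic protease gene, with the largest change of the list (-2.88, adjusted p = 0.0763, and 0.0211 with the block). Socs2, a brake on cytokine signals, rose by 1.16 (adjusted p = 0.0115), Ctla4, the inhibitory receptor, by 0.83 (adjusted p = 0.0211) and Plagl1 by 0.82 (adjusted p = 0.016). For TGFb added to IL-6 in WT cells, however, Plagl1 changed by -0.73 (adjusted p = 0.6), against 1.13 to 1.62 in the other pairs. Neither Ctla4 (0.78, adjusted p = 0.0763) nor Plagl1 (0.72, adjusted p = 0.0905) was called without the STAT3-deficient TGFb group. Tnfrsf4, the costimulatory receptor OX40, fell by 0.53 (adjusted p = 0.0423). Without replicate 1 of STAT3-deficient TGFb 3 rose and 0 fell (Tnfrsf4 -0.42, adjusted p = 0.0535), without replicate 2 4 rose and 4 fell, and without the group 2 rose and 0 fell. The 5 marker genes fixed beside the members (Ikzf2, Ikzf4, Il2ra, Ctla4 and Tnfrsf18) had a summed intensity of log2 13.36 to 14.34 with TGFb and 13.22 to 14.42 without. A sum of linear intensities mostly follows its brightest genes, here Tnfrsf18 (up to 13.43) and Il2ra (up to 13.2), which were not called. Ikzf2, Ikzf4 and Ctla4 were called as rises, which the sum does not show.

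Of 22 further genes of the adenosine pathway, 14 were tested, and 1 rose and 1 fell (median -0.19), beside 9.25% of all genes called. Entpd5, a relative of CD39 inside the cell, rose by 0.46 (adjusted p = 0.0257), and Adk, the kinase that removes adenosine, fell by 0.92 (adjusted p = 0.0306). Adk was not called without replicate 1 of STAT3-deficient TGFb (-0.82, adjusted p = 0.0533) or without the group (-0.75, adjusted p = 0.14). Of 32 partners of the surface members 27 were tested, and 3 rose and 3 fell (median -0.04, 3 and 5 with the replicate block, and 3 and 2 without the STAT3-deficient TGFb group). Cdh1, the gene of E-cadherin, to which CD103 binds, rose by 2.28 (adjusted p = 0.00963), from 4.1 to 6.39, a change whose size depends on the background since its lower level is under the minimum. It may have entered the test only through arrays with TGFb, so its call is a description. For TGFb added to IL-6 in WT cells Cdh1 changed by 0.61 (adjusted p = 0.981), against 2.25 to 3.27 in the other pairs. The TGFb receptor genes Tgfbr1 and Tgfbr2 rose by 2.2 (adjusted p = 0.000324) and 0.98 (adjusted p = 0.00111). Nrros, a relative of Lrrc32 that also holds latent TGFb, fell by 1.07 (adjusted p = 0.00706).

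The same lists were counted between the genotypes. Under IL-6 with TGFb, where no member passed, Ikzf2 was the 1 gene called among the 31 partners of Foxp3, at 11.54 in STAT3-deficient and 7.31 in WT cells (change 4.23, adjusted p = 0.00818), and Icos, a costimulatory receptor gene, was the 1 gene called among the 20 effector and surface genes, lower by 0.97 in STAT3-deficient cells (adjusted p = 0.0391). The medians of these 2 lists were -0.13 and 0.16, against 0.01 over all genes. Under IL-6 alone the partners of Foxp3 had a median of -0.75 against -0.03 over all genes, with 1 gene higher and 1 lower in STAT3-deficient cells. These were Nr4a3, another nuclear receptor of the same family, at 2.63 (adjusted p = 0.0224), and Stat5b, which carries the IL-2 signal, at -1.23 (adjusted p = 0.0428). With the replicate block 1 was higher and 8 were lower, in a fit that called 11.5% of all genes.

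Of the adenosine genes Ampd3, an AMP deaminase, was lower under IL-6 by 1.79 in STAT3-deficient cells (5.57 against 7.36, adjusted p = 0.0389), with its lower level under the minimum. Of the surface partners 2 of 27 were lower there, in a comparison that called 3.29% of all genes. Tgfbr2 differed by -1.2 (adjusted p = 0.0303) and Itgb7, the integrin chain that pairs with CD103, by -0.97 (9.5 against 10.47, adjusted p = 0.0271). No gene of the 4 lists was called under TGFb or in medium, where no gene at all was called.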

How the data were processed

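Each of the 16 samples gave 1 array. Per the labels' protocols, RNA came from a MirVana kit and its biotin label from a MessageAmpII kit. RMA is named by the submitters' processing notes as the summary method. Its version, its settings and the step that made the values linear were not given in the sources used here. Intensity values were deposited by the authors as linear values between 6 and 37243, of which 100% were whole, and their normalization was kept. Log2 was taken with no pseudocount. The titles and genotype labels gave each sample its group and replicate number.

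The file held 45101 probe sets, with 64 array controls, 9160 without a symbol and 932 with several symbols. The single-symbol probe set of highest mean on the 16 arrays stood for its gene. Genes reaching log2 6 on at least 2 arrays were tested, which left 13007 and set aside 5186. A single limma fit (limma 3.58.1 in R 4.3.3, data.table at version 1.17.8) took all 16 arrays and estimated 8 group means (8 residual and 3.27 prior degrees of freedom), with two-sided moderated tests, adjusted after Benjamini-Hochberg across all genes tested in a comparison. The scripts were tested on simulated data. Python 3.11.15 with matplotlib 3.10.9 drew the figures. Precision is limited by the number of arrays.

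Same-numbered arrays deviated together: over the 28 pairs of groups the correlation of their deviations from the group means across genes was 0.11 to 0.86 (median 0.33). The numbers therefore pair the samples, and a fit with the replicate number as a block was run beside each comparison. The pairing comes from the numbers in the titles, whose meaning the labels do not state.

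The members, gene lists and comparisons were chosen with earlier results of these data known. Members were described in every comparison. Of each further list up to 4 called genes were named, by the size of the change, and for each member the 3 genes with the highest Pearson correlation over the arrays. The genes read to check the arrays (Stat3, Il17a, Ccr6, Xist, Eif2s3y) and the values of Tgfb1 were named after they were seen. Alternatives were another level minimum, normalization, offset, row per gene, array weights, a fit of only the arrays compared, leaving out single arrays, and exchanging or leaving out replicate 1 of STAT3-deficient TGFb and STAT3-deficient IL-6 with TGFb.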

Additional observations from a re-analysis of the deposited data

How the results depend on the processing

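The rises of Nt5e, Entpd1 and Itgae with TGFb over the 4 matched pairs were called under all 12 alternatives and in all 16 fits that left out 1 array, where they lay at 4.22 to 4.9, 1.64 to 2.25 and 2.24 to 2.77. With the mean of its probe sets Nt5e changed by 1.99. Foxp3 was called under 10 of 12 alternatives, but not with array weights (2.74, adjusted p = 0.0853) or without the STAT3-deficient TGFb group (2.41, adjusted p = 0.127, an alternative added after seeing the data), and in 5 of 16 fits that left out 1 array (2.09 to 3.39, adjusted p = 0.00314 to 0.0782). For TGFb against medium in STAT3-deficient cells 1 member was called, but 0 with no level minimum, with only the arrays compared, with array weights, with every probe set as its own row, with the mean of probe sets, with replicate 1 of STAT3-deficient TGFb and replicate 1 of STAT3-deficient IL-6 with TGFb (the array that correlates best with it) exchanged and with both left out, and 0 to 2 when 1 array was left out. For TGFb added to IL-6 in WT the count of 1 became 0 with only the arrays compared and with the mean of probe sets, and was 0 to 1 when 1 array was left out. For TGFb added to IL-6 in STAT3-deficient cells the count of 0 became 2 with the replicate block, with only the arrays compared and with that pair exchanged. The replicate block changed no other call of a member, but over all genes it raised the counts of calls for the 4 single comparisons with TGFb from 29, 46, 124 and 33 to 62, 196, 243 and 110, and for genotype under IL-6 with TGFb, under IL-6 and over the mean of conditions from 155, 428 and 126 to 322, 1490 and 697. The causes were not tested. The Foxp3 change for IL-6 added to TGFb in WT ran from -3.64 to 1.55 when 1 array was left out, and so reversed. Those fits do not pair the replicate numbers, within which this change was 0 and -2.09. Of 1122 values of a member in a comparison under an alternative other than leaving out 1 array, 34 reversed, and 76 more values reversed when 1 array was left out. Among these reversals 0 had a call on either side. Signal over background limits Foxp3, which lay under the minimum level on 10 of 16 arrays, and the 2 arrays of a group limit every comparison within a single condition. The counts of the wider lists without the STAT3-deficient TGFb arrays were likewise added after seeing the data.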
